A study of Mus musculus with 10 samples.

Results

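Keratinocyte RNA was compared between the back skin of control mice rubbed with acetone and olive oil (oil/acetone) and that of control mice rubbed with water. The comparison used 5 of the study's 10 samples, chosen by their labels: 3 oil/acetone samples and 2 water samples, all labelled wild type. The other samples, from Gsdma1 KO/KO; Gsdma3 fx/fx; K14-Cre mice (3 under oil/acetone and 2 under water), enter only where the control values are set beside them. By that genotype Gsdma1 is knocked out in the whole body, and Gsdma3 is deleted where the K14 promoter drives Cre, the keratinocytes of the epidermis and the hair follicle. The series was designed to study gasdermins A1 and A3 in skin whose barrier had been disrupted. Per the labels, the mixture held 4 parts of acetone to 1 part of olive oil, both treatments were rubbed in 2 times a day for 3 days, and tissue was taken on day 5. The epidermis was lifted off with dispase for 3 hours and dissociated with trypsin, so the RNA came from a cell suspension that can also hold immune cells and hair follicle cells. The labels give no age, strain or sex, and do not say that each sample came from its own animal.

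The outer layer of the skin is built by keratinocytes that leave the basal layer, make keratins 1 and 10, and then assemble a cornified envelope. Loricrin, filaggrin, hornerin, the small proline-rich proteins and the late cornified envelope proteins are the structural parts of that envelope, transglutaminases cross-link them, and ceramides and other lipids fill the space between the dead cells. Acetone removes these lipids, and barrier repair is known to involve lipid synthesis, differentiation, proliferation and cytokines stored in keratinocytes. Mouse epidermis also holds dendritic epidermal T cells and Langerhans cells.

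The 5 control samples held 16848266 to 20043395 reads. The files listed 16014 genes for each oil/acetone sample and 17916 for each water sample, so only the 16010 genes listed in all 5 were used, and of those the 15491 on autosomes. Another 1906 genes were listed in the water files only, 1750 of them with a mean under 10. The sex chromosomes were set aside because 4 Y-linked genes (Ddx3y, Eif2s3y, Uty and Kdm5d) ranged from 238.4 to 2342.3 in the oil/acetone samples and were 0 in both water samples. No control sample breaks that split. Y-linked genes mark male cells, so treatment and sex cannot be told apart. The mutant samples divided the same way, with 308.5 to 1898.5 under oil/acetone and 0 under water. Leaving out the sex chromosomes does not take out differences between the sexes in autosomal genes. Basal and suprabasal keratinocyte markers were present in every sample, with Krt5 at 343087, 330506 and 346633 under oil/acetone and 294142 and 245353 under water. The mitochondrial coding genes took 3.57%, 2.75% and 2.63% of the signal in the oil/acetone samples and 2.72% and 2.15% in the water samples, and their part in the results was not tested. For the mutants used later, Gsdma3 was at most 2.64 in each sample (62.1 to 283 in the controls), while Gsdma, the symbol the annotation gives for Gsdma1, was counted at 170.1 to 846 in the mutants and at 199 to 733 in the controls. The groups overlapped for Gsdma, so its counts do not check the genotype label.

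All values are reads per gene normalised for sequencing depth by the authors, called the signal here, and differences are on the scale of log2(signal + 1). Levels of different genes are not set against each other, because the signal is not per length. The names of list members beyond 2 for each list were chosen after their values were seen.

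Promoters are shown for 4 genes that the results turn on: Stfa3 and Cxcl14, which passed the test in opposite directions, and Sprr1b and Lce1g, which stand for neighbouring gene families. Each runs from 250 bases before to 50 bases after the start of the gene in RefSeq, on GRCm38.p6, and capitals mark the letters TGANTCA (bound by AP-1 factors, which switch on many differentiation genes) or GGGCGG (a GC box) on either strand. Their positions were chr16:36455343-36455642 for Stfa3, chr13:56296502-56296801 for Cxcl14, chr3:92438730-92439029 for Sprr1b and chr3:92752289-92752588 for Lce1g, each on the minus strand.
Stfa3: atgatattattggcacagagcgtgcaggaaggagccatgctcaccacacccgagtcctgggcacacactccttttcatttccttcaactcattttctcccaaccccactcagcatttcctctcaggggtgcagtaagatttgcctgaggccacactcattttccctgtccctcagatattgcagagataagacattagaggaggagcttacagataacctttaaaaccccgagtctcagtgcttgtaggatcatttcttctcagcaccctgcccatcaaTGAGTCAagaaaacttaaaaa
Sprr1b: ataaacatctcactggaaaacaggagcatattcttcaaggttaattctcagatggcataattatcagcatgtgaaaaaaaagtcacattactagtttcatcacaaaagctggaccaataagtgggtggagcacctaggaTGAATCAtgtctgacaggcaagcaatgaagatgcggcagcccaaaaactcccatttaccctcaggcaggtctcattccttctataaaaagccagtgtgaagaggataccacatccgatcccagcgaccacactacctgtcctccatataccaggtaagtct
Lce1g: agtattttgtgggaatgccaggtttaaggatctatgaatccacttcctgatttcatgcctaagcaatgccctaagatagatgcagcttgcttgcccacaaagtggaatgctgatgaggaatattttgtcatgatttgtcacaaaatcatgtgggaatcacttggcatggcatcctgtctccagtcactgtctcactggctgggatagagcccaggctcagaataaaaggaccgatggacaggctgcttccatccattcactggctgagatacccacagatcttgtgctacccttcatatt
Cxcl14: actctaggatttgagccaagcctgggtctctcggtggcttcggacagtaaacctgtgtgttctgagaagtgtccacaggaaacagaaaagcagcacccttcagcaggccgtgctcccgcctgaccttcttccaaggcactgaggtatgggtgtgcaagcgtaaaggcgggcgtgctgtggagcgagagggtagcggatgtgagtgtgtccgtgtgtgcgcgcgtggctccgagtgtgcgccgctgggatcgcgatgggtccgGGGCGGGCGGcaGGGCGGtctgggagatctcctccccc
The Stfa3 window held 1 AP-1 match, which began at position 30 counted from the gene's start, and the Sprr1b window held 1, at position -111. The Lce1g window held no match to either motif, and the Cxcl14 window held 3 GC boxes, of which the first overlaps the second. Among all 32851 RefSeq promoter windows of this length, 7.81% held TGANTCA and 35.7% held GGGCGG. The AP-1 letters were found in 8 of 10 windows of small proline-rich genes and 12 of 21 of cornified envelope genes, and in 0 of 17 of late cornified envelope genes. They were also found in 4 of 13 windows of Langerhans and dendritic cell markers and 1 of 18 of dendritic epidermal T cell markers. These matches describe letters in a window and are not binding sites measured here. Of the 24 genes in the plot of named genes, 18 had a promoter entry. The AP-1 letters were in 2 of 9 windows of the higher genes and 0 of 9 of the lower. GGGCGG was in 1 of 9 and 4 of 9.

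Across 15031 genes tested, few differences between the groups passed the test. With limma, 3 genes were called at an adjusted p under 0.05, which is 0.02% of those tested. Stfa3 was higher under oil/acetone, and Cyp2g1 and Cxcl14 were lower. Before adjustment, 1319 genes (8.78%) had a p under 0.05, 497 of them higher and 822 lower under oil/acetone. The number depended on the tool: edgeR called 1 gene and DESeq2 called 173, of which 91 were higher and 82 lower. In 1786 genes (11.9%) all 3 oil/acetone samples lay above both water samples, and in 1816 (12.1%) all 3 lay below both. These shares are the background for each count of genes wholly above or wholly below water given for a list. Some genes belong to more than 1 list and are counted in each. With a difference of 1 or more on the log2 scale as well, 265 of the 15031 genes were higher and 594 were lower. Many of these had low signal, with a median of 62.9 on the higher side and 53.2 on the lower, against 305.1 over all genes. A mean of 50 or more was reached by 54% and 52% of them, against 76.9% of all genes. The median log2 difference over all genes was 0.0019.

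**Figure D1:**
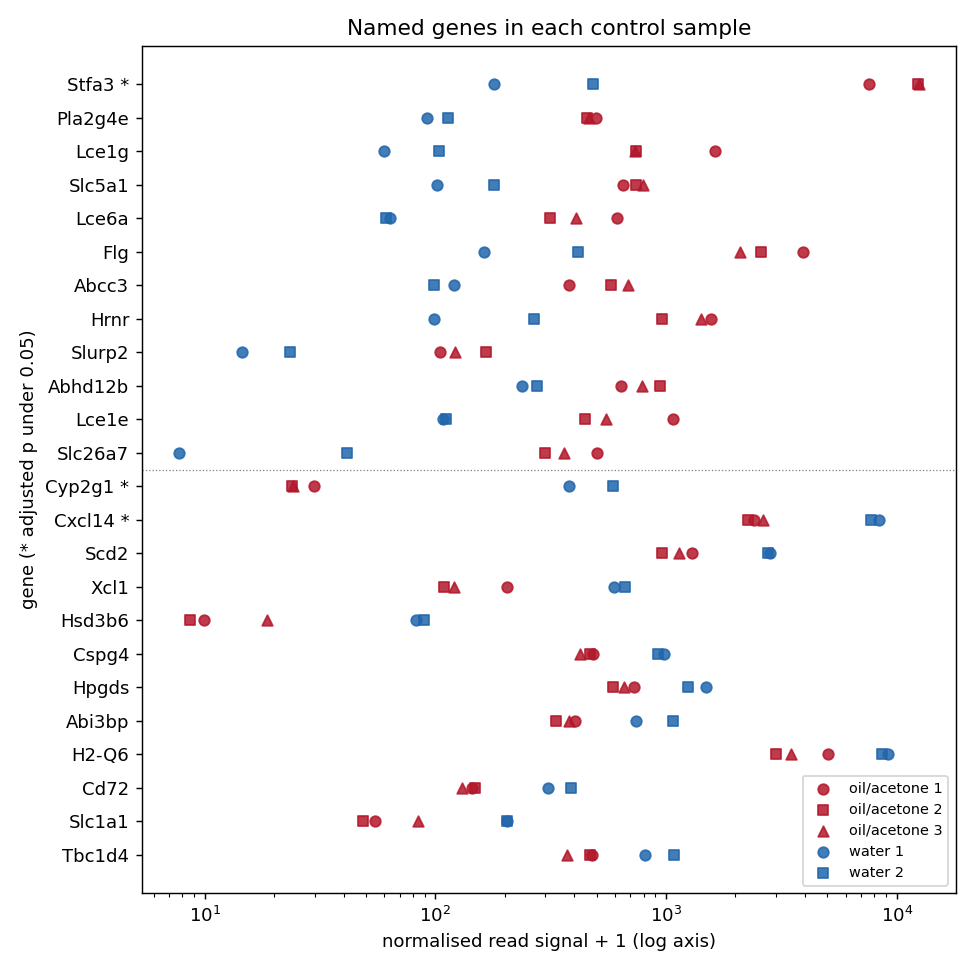
Signal of the 12 named higher and 12 named lower genes in each control sample on a log axis, with red for oil/acetone and blue for water and a symbol for each replicate. The groups do not overlap for any of the 24 genes, which is how all but the 3 starred genes were chosen, and the stars mark Stfa3, Cyp2g1 and Cxcl14.

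Stfa3 encodes a stefin, an inhibitor of cysteine proteases such as cathepsins, and lies at chr16:36450537-36455392 (GRCm38). Its signal was 7609, 12327 and 12430.0 in the oil/acetone samples and 179 and 479 in the water samples. Every oil/acetone sample lay far above both water samples, and the log2 difference was 5.16 ± 0.42 (SE, adjusted p = 0.0298 with limma). Cyp2g1, a cytochrome P450 best known from the olfactory epithelium, lies at chr7:26808892-26821205. Its signal was 28.8, 22.9 and 23.1 in the oil/acetone samples and 379.5 and 589 in the water samples. It was thus near the low end of the measured range in all oil/acetone samples. The log2 difference was -4.20 ± 0.35 (SE, adjusted p = 0.0298 with limma). Cxcl14, a chemokine that healthy skin epithelium makes constitutively, lies at chr13:56288643-56296551. Its signal was 2393, 2275 and 2623 in the oil/acetone samples and 8411 and 7701 in the water samples, with both groups tight. The log2 difference was -1.73 ± 0.16 (SE, adjusted p = 0.0388 with limma).

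These 3 calls kept their direction in all 19 alternatives but not their significance. Without the second oil/acetone sample, the adjusted p was 0.133 for Stfa3, 0.193 for Cyp2g1 and 0.274 for Cxcl14, and without the first water sample it was 0.174, 0.187 and 0.187. The Cyp2g1 call was also lost without the second water sample (0.117), and the Cxcl14 call was lost whichever sample was left out (0.0682 to 0.274). Over the alternatives, the adjusted p ranged from 4.8e-28 to 0.376 for Stfa3, from 6.82e-27 to 0.193 for Cyp2g1 and from 1.97e-14 to 0.416 for Cxcl14.

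The next named genes in the higher direction were not called by limma. All 12 on that side, Stfa3 included, were called by DESeq2, but on the same samples by which they were chosen. Pla2g4e, a calcium-dependent N-acyltransferase of the cytosolic phospholipase family, was 495, 454 and 464 in the oil/acetone samples and 91.3 and 113 in the water samples. Its log2 difference was 2.20 ± 0.23 (SE, adjusted p = 0.0789 with limma), and the oil/acetone samples were as tight as the water samples. Slc5a1, the sodium-glucose cotransporter SGLT1, was 647, 742 and 795 in the oil/acetone samples and 101 and 178 in the water samples, a log2 difference of 2.43 ± 0.29. Slc26a7, an anion exchanger, was 500.3, 299 and 359 in the oil/acetone samples and 6.73 and 40.3 in the water samples, with the water samples themselves several-fold apart. The organic anion exporter Abcc3 (378, 575 and 684 against 119 and 97.5), the serine hydrolase Abhd12b (638, 941 and 786 against 235 and 274) and the secreted Ly6-family protein Slurp2 (104, 164 and 120.1 against 13.5 and 22.5) also separated the groups without overlap. The other 5 are envelope genes described with their families.

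Of the 43 gene lists, the late cornified envelope genes had the largest share of members wholly above water. In 14 of 18 tested members (77.8%, against 11.9% of all genes) every oil/acetone sample was above both water samples, none lay wholly below, and the median log2 difference was 2.06. By tool, DESeq2 called 13 of them higher, while 14 had an unadjusted p under 0.05 with limma and none passed adjustment. The median was 2.15 against the first water sample alone and 1.80 against the second, so this family depended little on which water sample was used. Lce1g was 1626, 742 and 732 in the oil/acetone samples and 58.6 and 102 in the water samples, a log2 difference of 3.61 ± 0.42 (SE, adjusted p = 0.105 with limma). Lce6a was 613, 313 and 405 in the oil/acetone samples and 62.5 and 60.0 in the water samples, and Lce1e was 1075, 444 and 549 in the oil/acetone samples and 107 and 109.7 in the water samples. The first oil/acetone sample was the highest of the 5 in each of these 3 genes. The family's summed signal was 42235, 15308 and 20677 under oil/acetone and 8855 and 7250 under water, so the first oil/acetone sample stood apart in size but not in direction. The members that overlapped were Lce1m (6641, 2159.6 and 3587 against 2669 and 1706) and the 3 members of the Lce3 group, all at low signal, such as Lce3d (16.9, 4.77 and 6.61 against 5.76 and 15.9). These genes are close copies of one another, and reads that fit several copies may have been shared or dropped in counting.

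Among 20 tested genes of the wider cornified envelope, 10 had all oil/acetone samples above water and none had all below, with a median log2 difference of 0.69. Those 10 include Lce6a, also counted with the late cornified envelope genes, and Tgm1, also counted with the transglutaminases. Flg, which encodes filaggrin, a protein whose breakdown products hold water in the cornified layer, was 3928, 2586 and 2082 in the oil/acetone samples and 161 and 415 in the water samples, a log2 difference of 3.41 ± 0.42 (SE, adjusted p = 0.123 with limma). Hrnr, which encodes the related protein hornerin, was 1561, 964 and 1417 in the oil/acetone samples and 98 and 265 in the water samples, a log2 difference of 2.99 ± 0.42. Rptn, which encodes repetin, was 214, 146 and 109 in the oil/acetone samples and 12.5 and 64.7 in the water samples. For all 3, the first water sample was the lowest, and the second lay between it and the oil/acetone samples. Lor, which encodes loricrin, the most abundant envelope protein, was 31189, 15337 and 23279 in the oil/acetone samples and 7015 and 9660.4 in the water samples. The plakin envoplakin (Evpl) separated narrowly, at 7447, 7458 and 9275 against 6928 and 6035. Involucrin (Ivl), an early scaffold of the envelope, overlapped at 4266, 2411 and 1832 against 1498 and 3457, and so did Cdsn, Sbsn, Dmkn and Krtdap, in each of which the second water sample was above at least 2 oil/acetone samples. The median difference for the list was 1.27 against the first water sample and 0.31 against the second.

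The small proline-rich genes were divided. Of 11 tested members, 5 lay wholly above water and none wholly below, with a median log2 difference of 0.75 that was 1.68 against the first water sample and 0.24 against the second. Sprr1b, whose promoter is shown above, was 2863, 2130.0 and 1962 in the oil/acetone samples and 713 and 990.2 in the water samples, a log2 difference of 1.44 ± 0.23 (SE, adjusted p = 0.239 with limma). Its neighbour Sprr1a was 11698, 6779 and 5667 in the oil/acetone samples and 5969 and 13687 in the water samples, with the highest value of all in the second water sample. Sprr2e was 79.4, 37.2 and 61.7 in the oil/acetone samples and 13.5 and 13.1 in the water samples, and Sprr4 was 302, 117 and 265 in the oil/acetone samples and 53.8 and 760.5 in the water samples, again highest in the second water sample. The Sprr2 genes are near copies, so their separate counts are uncertain.

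Most of these genes sit together in the epidermal differentiation complex. Between the outermost listed members, at chr3:92080271-93449077 (GRCm38), 46 genes were tested, 27 of them (58.7%) lay wholly above water and 1 lay wholly below. The median log2 difference of the 46 was 1.41. In that span 9 genes belonged to none of the lists, and 2 of those lay wholly above, with a median of 0.64. The boundaries of the span were set from the lists, with results already known, so its share is a description.

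**Figure D2:**
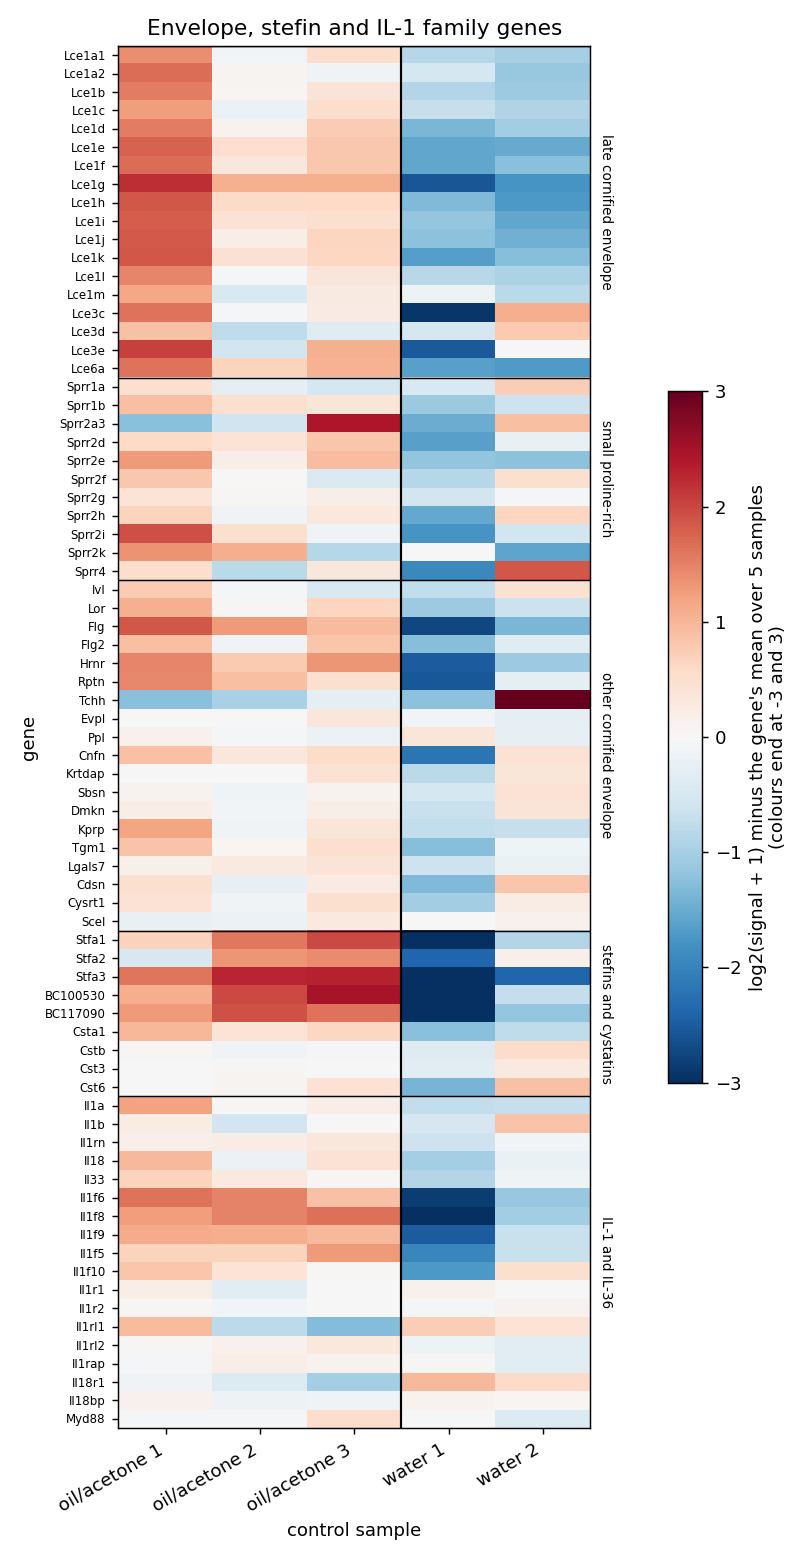
Log2(signal + 1) of each gene minus its mean over the 5 control samples, for the late cornified envelope, small proline-rich, other cornified envelope, stefin and IL-1 family genes tested (red above and blue below the gene's mean). Most late cornified envelope rows are blue in both water columns, while many other rows are darkest in the first water sample, and Sprr4 and Tchh are reddest in the second.

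Most stefin A genes lay well above water. In 5 of 9 tested stefins and cystatins every oil/acetone sample was above water and in none was every one below, and the median log2 difference was 1.87, or 3.14 against the first water sample and 1.43 against the second. Stfa1 was 602, 1101 and 1469 in the oil/acetone samples and 34.6 and 201 in the water samples, and BC100530, a stefin A gene of the same cluster, was 3647, 6786 and 9409 in the oil/acetone samples and 58.6 and 1046 in the water samples. The second water sample was well above the first in both, yet below every oil/acetone sample. Csta1, a stefin made in the outer epidermis, was 981, 651 and 756 in the oil/acetone samples and 204 and 289.8 in the water samples, a log2 difference of 1.69 ± 0.26 (SE, adjusted p = 0.217 with limma). Cystatins outside this cluster overlapped, such as Cst6 at 8023, 8345 and 10608 against 3009 and 14524 and Cstb at 3689.7, 3344 and 3461 against 2754 and 5333. All 5 stefins that separated lie at chr16:36119946-36455392, where 7 genes were tested. The ends of that span were set from listed genes, so the count is a description. The stefin A genes are near-identical in places, so reads may be divided among them.

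Enzymes that join and process envelope proteins gave a mixed picture. Tgm3, a transglutaminase that cross-links small proline-rich proteins and trichohyalin, was 928, 1210.1 and 2010.5 in the oil/acetone samples and 369.9 and 275 in the water samples, a log2 difference of 2.04 ± 0.33 (SE, adjusted p = 0.241 with limma). Tgm1, the membrane-bound transglutaminase of the envelope, was 1108, 642 and 859 in the oil/acetone samples and 254 and 564 in the water samples, with the second water sample only a little below the lowest oil/acetone sample. Tgm5 overlapped, at 373, 582 and 559 against 394 and 579.5. Padi2, a peptidylarginine deiminase, was on the other side, at 169.7, 151 and 68.3 against 324 and 176. Of 9 tested transglutaminases and deiminases, 2 lay wholly above water and 1 wholly below, and the median log2 difference was 0.05. Of 25 tested proteases and protease inhibitors, 7 (28%, against 11.9% of all genes) lay wholly above water and none wholly below. Casp14, a caspase that takes part in filaggrin breakdown, was 1387, 1512 and 2434 in the oil/acetone samples and 322 and 819.6 in the water samples. Serpinb3a, a serpin, was 53.6, 113 and 159 in the oil/acetone samples and 0.961 and 6.56 in the water samples, a log2 difference of 4.69 ± 0.72, with water values of a few reads. Klk5 and Klk7, kallikreins that cut the links between cornified cells, did not separate the groups: Klk7 was 3518, 2944 and 4083 against 702 and 5829, so the water samples fell on either side of all 3 oil/acetone samples. The list median was 1.18 against the first water sample and 0.07 against the second.

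Genes of barrier lipids lay on both sides of water. Of 33 ceramide and barrier lipid genes, 13 lay wholly above water and 4 wholly below, against 11.9% and 12.1% of all genes. On the higher side were Cers3, which makes ceramides with very long chains (1824, 1539 and 1682 against 1033 and 923), the lamellar body transporter Abca12 (6046, 4907 and 5837 against 3828 and 3921) and the lipoxygenase Alox12b (913, 662 and 1042 against 334 and 609.5). Sdr9c7, a dehydrogenase of the bound ceramide pathway, was 317, 275 and 436 in the oil/acetone samples and 59.6 and 198 in the water samples. On the lower side, Cers4, a synthase for ceramides of shorter chains, was 951, 538 and 723 in the oil/acetone samples and 1819.8 and 1564 in the water samples, a log2 difference of -1.23 ± 0.26 (SE, adjusted p = 0.368 with limma). Fa2h, which hydroxylates the fatty acid of ceramides, was 205, 161 and 429 in the oil/acetone samples and 579 and 812 in the water samples, and the fatty acid elongase gene Elovl6 was 1057, 868 and 2135 in the oil/acetone samples and 2579.8 and 2447 in the water samples. DESeq2 called 1 gene of this list in each direction, Cers3 and Cers4.

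Fatty acid synthesis lay on the other side. In 10 of 20 tested genes all oil/acetone samples were below water and in none were all above, and the median log2 difference was -0.66, with -0.74 and -0.53 against the water samples taken singly. Scd2, a stearoyl-CoA desaturase, was 1298, 960.0 and 1132 in the oil/acetone samples and 2814 and 2757 in the water samples, a log2 difference of -1.31 ± 0.18 (SE, adjusted p = 0.206 with limma). Scd1 was 3246, 2679 and 5673 in the oil/acetone samples and 6184 and 7157 in the water samples, and the desaturase Fads2 was 114, 63 and 46.3 in the oil/acetone samples and 201 and 154 in the water samples. Fasn, the fatty acid synthase, overlapped at 2408, 2953 and 4725 against 4153 and 4268. Some of these genes are also sebaceous gland genes. Of 13 tested sebaceous markers 6 lay wholly below water and none wholly above, among them Mc5r (31.8, 23.9 and 43 against 71.1 and 88.1). The sebaceous markers' summed signal overlapped between the groups, but its largest member, Krt79, also overlapped (21018, 26928 and 29826 against 11209 and 24925). The part of the sebaceous markers in the fatty acid result was not tested. Of 22 cholesterol synthesis genes, 2 (9.09%) lay wholly below water, under the 12.1% of all genes, and 0 wholly above.

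The 3 IL-36 cytokines, keratinocyte members of the IL-1 family, and their antagonist lay above water. Of 18 tested IL-1 and IL-36 family genes, 9 lay wholly above water and 1 wholly below, against 11.9% and 12.1% of all genes. With limma 8 of them were higher and 1 lower at an unadjusted p under 0.05 and none passed adjustment, and DESeq2 called 4 higher and 1 lower. Il1f8 (IL-36 beta) was 91.3, 108 and 122 in the oil/acetone samples and 2.88 and 17.8 in the water samples, a log2 difference of 3.65 ± 0.66 (SE, adjusted p = 0.297 with limma). Il1f9 (IL-36 gamma) was 674, 655 and 603 in the oil/acetone samples and 53.8 and 195 in the water samples, and Il1f6 (IL-36 alpha) was 63.5, 57.3 and 37.5 in the oil/acetone samples and 1.92 and 8.44 in the water samples. The receptor antagonist of the same pathway, Il1f5, was 789, 788 and 1215 in the oil/acetone samples and 128 and 315 in the water samples, so agonists and antagonist lay on the same side. In each of these 4 genes the first water sample was the lowest and the second was intermediate. Il1rl2, which encodes the receptor they share, was 3324, 3547 and 4008 in the oil/acetone samples and 2919.9 and 2566 in the water samples, a narrow separation, and the alarmin Il33 was 2381, 1857 and 1556 in the oil/acetone samples and 819.6 and 1392 in the water samples. Il1b overlapped, at 205, 116 and 177 against 123 and 316, and Il18r1, a receptor subunit that lymphocytes carry, was lower, at 287, 236 and 152 against 607 and 465. At chr2:24153161-24351494, where the IL-36 genes and Il1rn lie, 5 of 6 tested genes were wholly above water. The ends of that span were set from listed genes, and it held no tested gene outside the list. The count is thus a description of genes already counted.

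Markers of keratinocyte layers and of cell division lay above water in part. Krt1, the first keratin of the suprabasal layers, was 68569.6, 108689.9 and 140546 in the oil/acetone samples and 33431 and 33339.6 in the water samples, a log2 difference of 1.60 ± 0.31 (SE, adjusted p = 0.323 with limma). Its partner Krt10 separated narrowly, at 128247, 159834 and 205521 against 98680.3 and 125263. Calm4, a calmodulin-like protein of differentiating keratinocytes, was 13699, 13202 and 17627 in the oil/acetone samples and 4582 and 7398 in the water samples. In the suprabasal list 6 of 24 genes (25%) lay wholly above water and in the basal list 6 of 20 (30%), against 11.9% of all genes, with none wholly below in either. The median log2 difference was only 0.20 for the suprabasal list and 0.21 for the basal list. Of 40 proliferation genes, 11 lay wholly above water and none wholly below, against 11.9% and 12.1% of all genes, with a median of 0.69. Cdc20, an activator of the anaphase-promoting complex, was 1213, 1536 and 1776 in the oil/acetone samples and 509 and 867 in the water samples, and Mki67, a marker of dividing cells, was 2934, 4621 and 5846 in the oil/acetone samples and 1794 and 2555 in the water samples. Within the oil/acetone group the proliferation list's summed signal was 31586, 40655 and 53860, and under water it was 25678 and 31548, so the first oil/acetone sample was level with the second water sample. Ligands of the epidermal growth factor receptor lay on both sides: Ereg (1257, 769 and 968 against 386 and 495) and Hbegf (1143, 1535 and 1949 against 942 and 882) were above water, and Areg (1299, 637 and 639 against 1611 and 1365) was below. Of the 14 tested genes of that receptor family, its ligands and regulators, 5 lay wholly above water and 1 wholly below.

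Some markers of the immune cells of the epidermis lay below water. In bulk RNA, fewer cells of a type and less RNA per cell cannot be told apart. Of 24 tested markers of dendritic epidermal T cells, 9 (37.5%, against 12.1% of all genes) lay wholly below water and none wholly above, with a median log2 difference of -1.19. Xcl1, a chemokine these T cells secrete, was 203, 108 and 119 in the oil/acetone samples and 596 and 660.2 in the water samples, a log2 difference of -2.18 ± 0.32 (SE, adjusted p = 0.207 with limma). Ctsw, a cathepsin of cytotoxic lymphocytes, was 1379.8, 796 and 650.3 in the oil/acetone samples and 2188 and 1809 in the water samples. The T cell receptor chain Trdc was 2822, 1218 and 852 in the oil/acetone samples and 5445 and 2676 in the water samples, and Cd3e was 2007, 1132 and 742 in the oil/acetone samples and 3042 and 1638 in the water samples. For both, the first oil/acetone sample lay between the water samples, and the first water sample was the highest. Summed over the list, the signal was 39522, 20842 and 14017 under oil/acetone and 65735 and 37106 under water, so the groups overlapped by the first oil/acetone sample.

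For Langerhans and dendritic cell markers the second water sample was the high one. Of 20 tested, 13 lay wholly below water and none wholly above, against 12.1% and 11.9% of all genes. The median log2 difference was -1.06, but it was -0.34 against the first water sample and -1.77 against the second. Cd74, the invariant chain of MHC class II, was 4440.2, 4071 and 3687 in the oil/acetone samples and 4678 and 14552 in the water samples. H2-Aa, a class II chain, was 1785, 1503 and 1169 in the oil/acetone samples and 2069.6 and 6036 in the water samples. The second water sample was well above all 4 other samples in both genes, and the first was only a little above the oil/acetone samples. Cd207, the langerin gene that defines Langerhans cells, overlapped, at 1192, 908 and 527 against 944 and 2279. Cd86, a costimulatory molecule, was 171, 113 and 76.1 in the oil/acetone samples and 253 and 429 in the water samples, and it was the 1 gene of this list that DESeq2 called.

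**Figure D3:**
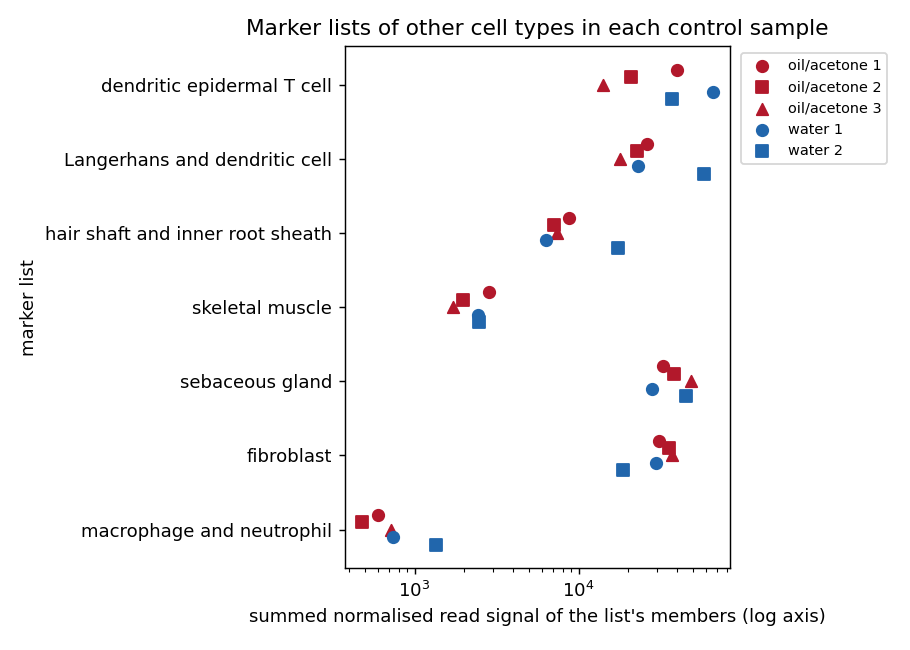
Summed signal of marker lists of other cell types in each control sample, on a log axis, with red for oil/acetone and blue for water. The first water sample is highest for dendritic epidermal T cells, and the second is highest for Langerhans cells and for the hair shaft and inner root sheath.

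Markers of other tissues were unequal between the water samples. Of 13 tested skeletal muscle genes, 9 lay wholly below water, against 12.1% of all genes. DESeq2 called 2 of them lower, Acta1 and Tnnt3. Acta1 was 82.4, 43.9 and 66.1 in the oil/acetone samples and 355 and 132 in the water samples. The summed signal of that list overlapped (1715 to 2835 against 2454 and 2455). It was carried by Tpm2, at 2499.5, 1726 and 1440 against 1246 and 1925, so the overlap of the sum does not describe the other members. Of 13 hair shaft and inner root sheath genes, 4 lay wholly below, against 12.1% of all genes. The list median was 0.17 against the first water sample and -2.39 against the second. The macrophage and neutrophil markers summed to 479 to 721 under oil/acetone and to 743 and 1353 under water. Fibroblast markers summed to 30745 to 36936 under oil/acetone and to 29742 and 18633 under water, a sum that includes Postn, a secreted matrix protein, at 13241, 21426 and 26200.3 against 6232 and 6164. Without Postn the sum overlapped, at 17504, 14203 and 10736 against 23510 and 12470 (recomputed after the values were seen). Of 14 tested fibroblast markers, 1 lay wholly above water (Postn) and 2 wholly below, Lum and the collagen gene Col5a1, the latter at 273, 209 and 199.5 against 512 and 334. The part of these cell types in the differences above was not tested.

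The remaining named lower genes were not called by limma. All 12 on that side were called by DESeq2, again on the samples by which they were chosen. Hsd3b6, a 3-beta-hydroxysteroid dehydrogenase of steroid synthesis, was 8.93, 7.63 and 17.6 in the oil/acetone samples and 81.7 and 88.1 in the water samples, a log2 difference of -2.88 ± 0.49 (SE, adjusted p = 0.282 with limma). The neuronal-type glutamate transporter Slc1a1 was 53.6, 47.7 and 82.7 in the oil/acetone samples and 204 and 203 in the water samples. Hpgds, the haematopoietic prostaglandin D synthase, was 729, 588 and 654 in the oil/acetone samples and 1490.2 and 1239 in the water samples, and the proteoglycan gene Cspg4 was 481, 467 and 423 in the oil/acetone samples and 983 and 918 in the water samples. In these 4 genes both water samples lay well above every oil/acetone sample. H2-Q6, a class I-like histocompatibility gene with close copies whose reads may be mixed, was 5023, 2988 and 3469 against 9166 and 8620.4. Cd72, a lectin of immune cells, was 143, 147 and 130.1 against 306 and 387, Abi3bp, a matrix protein, was 400.0, 331 and 378 against 739.8 and 1072, and Tbc1d4, a regulator of glucose transporter traffic, was 476, 466 and 370.4 against 813 and 1082.

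The water samples also differed from each other. They were 4-fold or more apart (2 on the log2 scale) in 406 genes, 270 higher in the second sample and 136 lower. The same count was 133, 452 and 158 for the 3 pairs of oil/acetone samples, so the water pair was not the widest apart. Hair follicle genes led on the side of the second water sample: Krt71, an inner root sheath keratin, was 0 in the first and 3331 in the second, and Krt25, its partner keratin, was 8.65 and 1877. On the other side, Tslp, a keratinocyte cytokine that acts on dendritic cells, was 2478 and 252 in the water samples and 4968, 1013 and 174 in the oil/acetone samples, so the groups overlapped widely. Dab2, an endocytic adaptor, was 674 and 46.9 under water, and the second of these matched the oil/acetone samples (40.7, 50.6 and 46.3). Among the 265 genes that were 2-fold higher without overlap, 187 (70.6%) were higher in the second water sample than in the first, against 50.3% of all genes. Among the 594 lower genes it was 257 (43.3%).

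**Figure D4:**
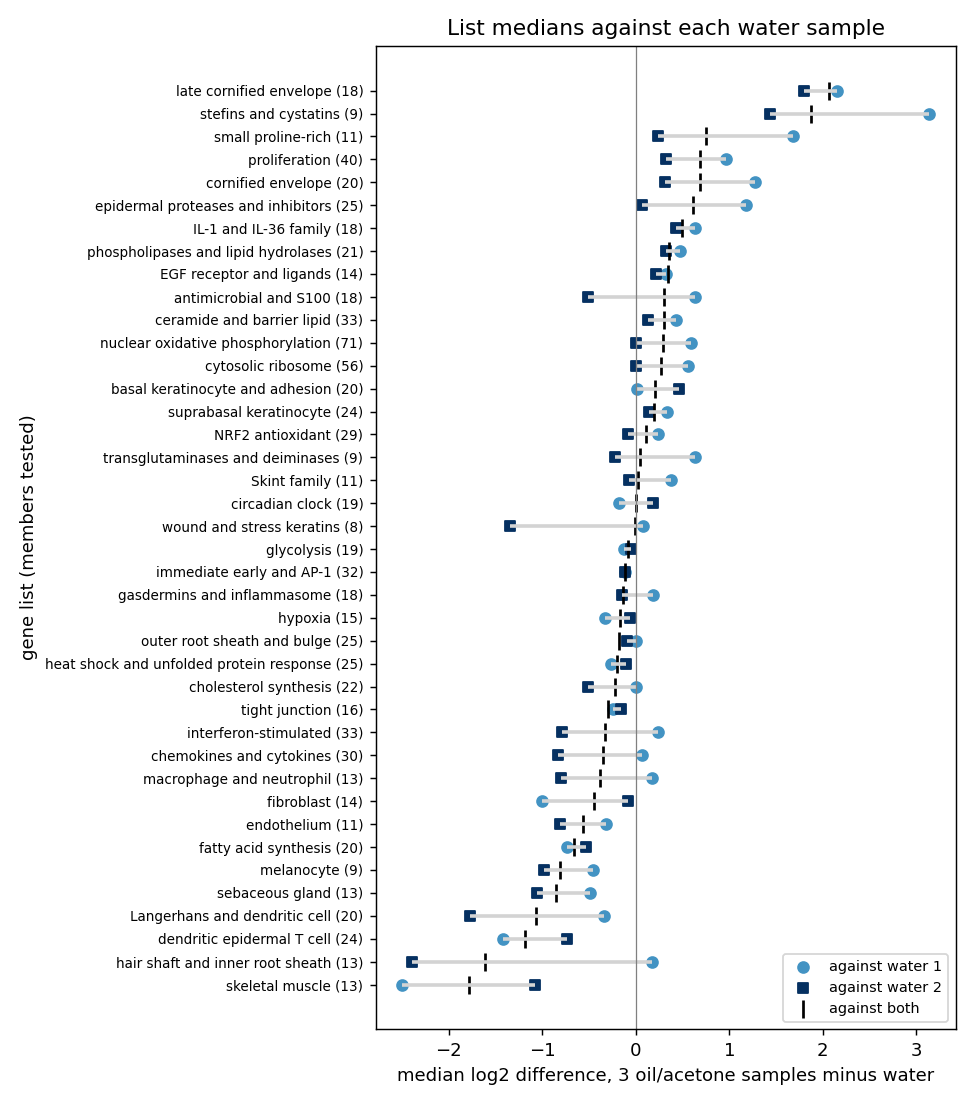
Median log2 difference of each gene list with at least 8 tested members, against the first water sample (circles), the second (squares) and both (bars), ordered by the last. Late cornified envelope genes keep a median near 2 against either sample, whereas the hair shaft list moves from 0.17 to -2.39 and the interferon-stimulated list from 0.24 to -0.79.

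Lists outside the barrier also moved with the choice of water sample. For 71 nuclear genes of oxidative phosphorylation the median was 0.59 against the first water sample and 0.00 against the second, and for 56 cytosolic ribosome genes it was 0.56 and 0.01. Of 33 interferon-stimulated genes, 0 lay wholly above water and 4 (12.1%) wholly below, the same share as over all genes, with medians of 0.24 and -0.79. Of 8 wound and stress keratins, none lay wholly above water and 2 wholly below. Keratins induced in wounded skin overlapped between the groups, with log2 differences of 0.26 for Krt6a, 1.02 for Krt6b, 0.18 for Krt16 and -0.13 for Krt17. The 2 on the lower side are keratins of simple epithelia: Krt19 was 5.96, 3.82 and 2.2 in the oil/acetone samples and 21.1 and 307 in the water samples, and Krt8 was 9.93, 10.5 and 5.51 in the oil/acetone samples and 18.3 and 248 in the water samples. In both, the second water sample was far above the first.

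The mutant samples, which share no sample with the controls, gave values for the same genes under the same treatments. There limma called 3779 of 15259 genes (24.8%), 1874 higher and 1905 lower, so a call in the mutants is common. All 12 named higher genes were called higher in the mutants. Stfa3 had a log2 difference of 6.37 there, Flg 4.14, Lce1g 3.85 and Pla2g4e 2.95. Of the 12 named lower genes, 10 had the same sign and 8 were called lower: Cxcl14 had -2.03 and Cyp2g1 -3.02. Xcl1 (0.05) and Cd72 (0.43) had the opposite sign in the mutants. Scd2, counted among those with the same sign, was only -0.01 there, and none of Xcl1, Cd72 and Scd2 was called in the mutants. Of the 257 genes 2-fold higher without overlap in controls and tested in mutants, 179 (69.6%) were wholly higher in mutants and 5 (1.95%) wholly lower. Of 572 on the lower side, 190 (33.2%) were wholly lower and 75 (13.1%) wholly higher. Over all genes, 28.9% were wholly higher in the mutants and 30.2% wholly lower. On the lower side the share with the same direction was thus near that of all genes, and the share with the opposite direction was under it. The Y-linked split is the same in both genotypes, so a difference between treatments and a difference between the sexes cannot be told apart in either.

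**Figure D5:**
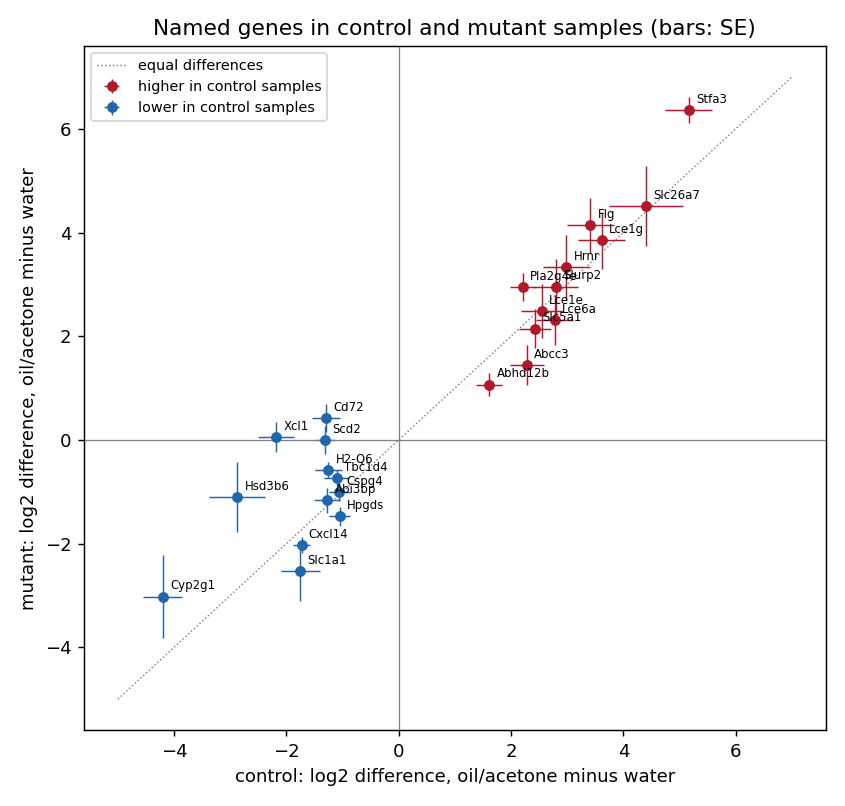
Log2 difference between oil/acetone and water in control samples (horizontal) and mutant samples (vertical) for the 24 named genes, with bars for the standard error. The 12 higher genes lie along the line of equal differences, while Xcl1, Scd2 and Cd72 lie between -0.01 and 0.43 in the mutants.

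The difference between oil/acetone and water was not shown to change with the genotype. In the model of all 10 samples limma called no gene for the interaction of treatment and genotype (0 of 15444, 0%), with 1828 genes at an unadjusted p under 0.05 and a lowest adjusted p of 0.16, while DESeq2 called 163. Without the first control water sample limma called 73, without the second it called 1, and without any other single sample it called none. Among the 24 named genes the lowest adjusted p of the interaction was 0.355.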

How the data were processed

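RNA of keratinocytes from 10 samples was deposited as a normalised read signal, 1 file per sample; the 5 control samples carry the comparison. Per the submitters' processing notes, the authors used Trimmomatic 0.38, featureCounts 2.0.0 and DESeq2 1.26.0 on GRCm38 (mm10). The aligner is not given in the sources used here, nor are the annotation release and strandedness. In each file every deposited signal was a whole multiple of 1 value (100% of values, tolerance 0.1 read), which recovered whole reads. Counting error sets the limit of precision for low genes, and PCR reads are not independent molecules. All 17983 identifiers matched GENCODE M21 (GRCm38); older symbols were matched through RefSeq synonyms.

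Samples were rescaled by median-of-ratios factors (0.9949 to 1.0049), and genes listed in all 5 files, on the 19 autosomes, that reached 10 in 2 samples or more, were tested. Log2(value + 1) was tested with limma 3.58.1 (lmFit, eBayes with trend, R 4.3.3), two-sided, with Benjamini-Hochberg adjustment over all 15031 genes. As the deposited values are not counts, count tests on recovered reads (edgeR 4.0.16, DESeq2 1.42.0) were alternatives, as were other pseudocounts, filters, scalings, sample sets and leaving out each sample. The fit was also run on simulated counts with known changes, and its outcome there is not used as support here. Because the labels do not say that samples are separate animals, p-values measure the spread between these samples, which may be technical.

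Named genes were the called genes, then the genes with the lowest p and no overlap up to 12 in each direction (group mean of 50 or more, predicted genes left out), and the 2 members of each list with the lowest p. For the water samples they were the genes furthest apart. Of these, 1 gene is not reported here. The comparison, lists and rule were chosen with earlier results of these data known. A gene not listed in a file was treated as missing, not as 0. List medians against each water sample alone were read from the same fit, and the counts against each were added after the data were seen.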

Additional observations from a re-analysis of the deposited data

Results flagged for a closer look

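In 5 named genes the control and the mutant samples lay on opposite sides. All 3 oil/acetone samples were below both water samples in the controls and above both in the mutants. Of the 572 genes 2-fold lower without overlap in controls and tested in mutants, 75 (13.1%) were wholly higher in the mutants. That share was under the 28.9% wholly higher there over all genes tested in both. Zbp1 and Kit, with control log2 differences of -0.995 and -0.807, missed the 2-fold limit and are not among the 572. The mutant difference minus the control difference, on the log2 scale, was 2.87 for Lyz2 (lysozyme of myeloid cells), 2.92 for Zbp1 (a sensor of nucleic acids), 2.06 for Trim30a (an interferon-stimulated gene), 1.55 for Kit (a receptor of melanocytes and mast cells) and 1.64 for Pparg (a lipid regulator of sebaceous and fat cells). None of the 5 passed limma's test of the interaction, where each had an adjusted p of 0.355.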

How the results depend on the processing

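The 3 calls were kept under other pseudocounts, filters and scalings and with robust fitting, while all 10 samples in 1 model also called 3 genes, of which 2 were the same. The count moved to 0 without the trend, to 1 with edgeR, to 173 with DESeq2 and to 8 with all chromosomes, where 4 lay on autosomes. Leaving out 1 sample gave 0 to 3 calls. With the replicate number as a block, 158 genes were called (84 higher, 74 lower). The labels do not say what a number shares and only 2 numbers pair, so the numbers were not taken as pairs. Deviations from the group means correlated at 0.335 for number 1 and -0.072 for number 2. Between the third oil/acetone and second water samples they correlated at 0.383. The deviations of the 2 water samples mirror each other, so these values cannot check each pair separately. With the block the interaction still had 0 calls. The median log2 difference was 0.0216 for genes with a mean of 50 or more, -0.0259 with equal totals and -0.0095 to 0.0083 with 1 sample left out. Interaction calls were 163 with DESeq2 and 0 to 73 with 1 sample left out. Over the 96 named genes reported, 1719 values kept direction and side of the threshold, 83 gained significance and 16 lost it. Of these genes, Fabp4 changed sign without the second water sample (0.81) and ranged from -2.60 to 0.81 with 1 sample left out. The cause was not tested. With 3 samples against 2, and few reads for low genes, differences that missed the threshold are not shown to be absent.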

Other observations

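Several gene groups outside the barrier and immune lists held members that separated the control groups without passing limma's test. Osgin1, a target of the stress regulator NRF2, was 80.4, 80.2 and 81.6 in the oil/acetone samples and 179.7 and 204 in the water samples, while Gstm1, another gene of that list, lay on the other side, at 1038, 1273 and 2555 against 577 and 894. Of the 29 tested NRF2 genes, 5 (17.2%) lay wholly above water and 4 (13.8%) wholly below, near the 11.9% and 12.1% of all genes. Among 19 circadian clock genes 4 lay wholly above and 4 wholly below (21.1% each), with Nfil3 at 1349, 908 and 638 against 2264 and 1984. The endoplasmic reticulum chaperone Hspa5 was 11914, 10685 and 15122 against 16978 and 20109, and in its list of 25 heat shock and unfolded protein genes 8 (32%) lay wholly below water and 3 (12%) wholly above. The Skint family, which shapes epidermal T cells, had 2 of 11 genes (18.2%, against 11.9% of all genes) wholly above and none wholly below. These were Skint1 and Skint9, the second at 617, 860 and 1210 against 463 and 548.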
